A study of Mus musculus with 9 samples.

Results

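The 10 genes described here encode the core of calcium handling in heart muscle cells: Ryr2, Trdn, Casq2, Hrc, Jph2, Cacna1c, Atp2a2, Pln, Slc8a1 and Camk2d. They were found by symbol among the 53465 Ensembl gene IDs of the count files, and all 10 were among the 13825 genes with enough reads to be tested. Heart RNA of NOD-SCID mice, which lack working T and B lymphocytes, was sequenced in 9 libraries, 3 in each of 3 groups. The groups were sham surgery, ligation of a coronary artery (called ligation below), and ligation followed by implantation of cells named FOXO3-GE-MPCs (ligation with cells, or the cell group). The labels name the border zone of the infarct as the sampled region in every group. For cell replicates 2 and 3 the source field names FOXO4 and FOXO5, while the title and the treatment field name FOXO3, which was followed. No label gives the mice's age, the time after surgery, a group with implanted control cells, or whether the 3 libraries of a group came from separate animals, so the p-values below measure only the spread between these samples.

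In a heart muscle cell, calcium that enters through L-type channels opens ryanodine receptors on the sarcoplasmic reticulum (SR), the internal calcium store, and the released calcium drives contraction. Relaxation follows when the SR calcium pump SERCA2a returns calcium to the store and the sodium-calcium exchanger moves it out of the cell. Phospholamban restrains the pump, calsequestrin buffers calcium inside the store, and lower SERCA2a with altered store release is a textbook feature of the failing heart.

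Read counts assigned to genes ranged from 6130726 to 6843059 in the sham libraries, from 4549268 to 7515052 in the ligation libraries and from 6734105 to 7041705 in the cell group. Levels are given in CPM, counts brought to the same nominal library size, with libraries scaled by TMM factors, which assume that most genes do not change, and 1 count was worth 0.125 to 0.213 CPM. Changes are log2 fold changes with standard errors (SE) from edgeR's quasi-likelihood test, and a gene was said to rise or fall at a Benjamini-Hochberg adjusted p under 0.05 over all 13825 genes. Mitochondrially encoded genes took 19.1 to 19.9% of counts in sham, 12.5 to 13.9% after ligation and 14.3% in each cell library. Heart muscle was present in every library: the 12 cardiomyocyte markers (contractile proteins and cardiac enzymes) summed to 74030 to 76410 CPM in sham, 57280 to 59800 in ligation and 57110 to 58390 in the cell group. In such bulk tissue, fewer cardiomyocytes and less RNA per cardiomyocyte cannot be told apart. Markers of other cell types differed between groups as well. The 6 fibroblast markers summed to 1743 to 1797 CPM in sham, 2632 to 2699 after ligation and 2623 to 2677 in the cell group, led after ligation by the collagens Col1a1 (1.18) and Col1a2 (1.29), while Pdgfra was lower (-0.20) and Tcf21 did not pass (0.08). The 6 macrophage markers summed to 324.8 to 359.5 CPM in sham, 515.4 to 541.9 after ligation and 209.4 to 211.9 in the cell group. In the same order of groups, 5 endothelial markers summed to 1780 to 1890, 1165 to 1241 and 1265 to 1305 CPM, and 4 smooth muscle markers to 539 to 572.7, 400.2 to 419.6 and 447.5 to 455.9 CPM. None of these markers was at 0 in any library. The part of these differences in the results below was not tested. In their file headers, sham libraries 1 and 2 share a name stem, as do ligation libraries 2 and 3, although their counts differed by more than counting noise; with each such pair summed into 1 library, 6 of the 10 genes passed for ligation and sham, 3 for cells and ligation, and 8 for cells and sham, where 6, 4 and 8 passed with all libraries kept apart. Of all genes tested with the pairs summed, 32.5%, 7.83% and 38.5% passed.

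The calcium handling genes did not move as a block after ligation. Of the 10, 3 rose (Slc8a1, Ryr2 and Cacna1c), 3 fell (Hrc, Pln and Atp2a2) and 4 did not pass the test (Trdn, Casq2, Jph2 and Camk2d). Over all tested genes, 20.1% rose and 18.0% fell, 38.2% in all, so 6 of 10 is the count to read against that share. The libraries of the 2 groups did not overlap for the same 6 genes, where 47.6% of all tested genes did not overlap. The median log2 change was 0.06 for the 10 genes and 0.01 for all tested genes. The split depends on the scaling of the libraries: scaled by library totals alone, 7 rose and 3 fell, where 45.7% of all tested genes passed and the median gene shifted by 0.19.

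**Figure D1:**
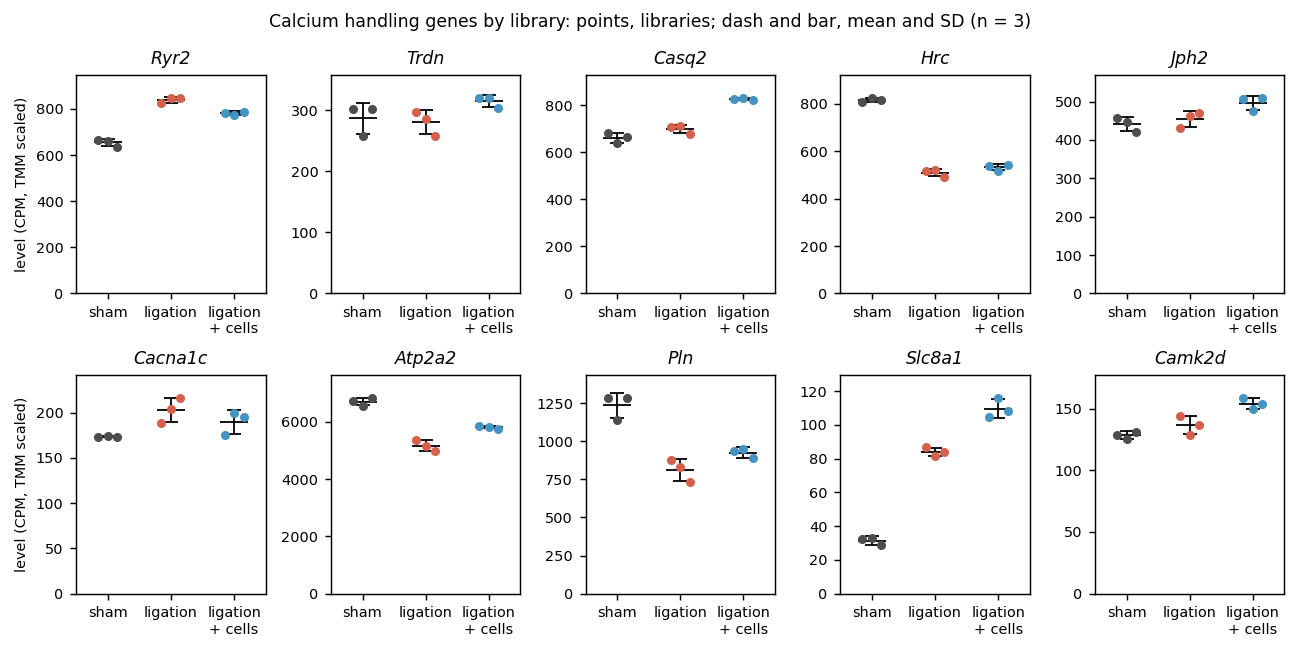
Level of each of the 10 calcium handling genes in CPM after TMM scaling (y axis, from 0), by group (x axis); points are libraries, the dash and bar are the mean and SD of 3 libraries. Slc8a1 sits at 28.6 to 33.3 CPM in sham and above 80 CPM in every ligation and cell library, while Hrc, Pln and Atp2a2 are lower in all 6 libraries of the ligated hearts than in the sham hearts.

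Promoter windows of RefSeq (build GRCm38.p6, 300 bases, of which 250 lie before the annotated start and 50 after it) matched 8 of the 10 genes. Those of Pln, which fell, and of Slc8a1, which rose, are shown because among the 11 windows matched they alone held the letters AGATAA or TGATAA, a core that GATA factors of the heart are known to bind. Capitals mark these letters on either strand; on the opposite strand they read TTATCT or TTATCA. The Pln window is chr10:53337436-53337735 on the plus strand and the Slc8a1 window is chr17:81738338-81738637 on the minus strand, both written 5′ to 3′ along the gene.
Pln: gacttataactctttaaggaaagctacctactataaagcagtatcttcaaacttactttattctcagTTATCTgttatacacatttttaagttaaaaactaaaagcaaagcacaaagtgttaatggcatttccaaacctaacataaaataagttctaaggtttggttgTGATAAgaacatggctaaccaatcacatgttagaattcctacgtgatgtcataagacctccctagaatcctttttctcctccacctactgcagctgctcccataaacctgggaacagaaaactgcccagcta
Slc8a1: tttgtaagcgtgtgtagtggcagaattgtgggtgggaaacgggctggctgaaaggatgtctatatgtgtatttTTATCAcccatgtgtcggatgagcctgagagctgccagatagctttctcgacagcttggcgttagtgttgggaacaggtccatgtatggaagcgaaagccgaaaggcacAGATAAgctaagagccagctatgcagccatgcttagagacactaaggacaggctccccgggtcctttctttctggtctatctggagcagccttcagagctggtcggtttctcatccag
Each window held 2 matches, at positions 68 and 169 in Pln and at positions 74 and 183 in Slc8a1, counted from 1 at the 5′ end. Of 32851 promoter windows of the same length, 18.6% held at least 1 such match. Near forms of these letters, such as AGATAG, were not counted. AGATAG stands in the Hrc window, in a Cacna1c window and in the Slc8a1 window, so the matches depend on the letters chosen. The E-box letters CANNTG occurred 2 times in the Pln window and 1 time in the Slc8a1 window, and 72.3% of all windows hold them. The Pln window also held 1 TATAAA, which 13.6% of all windows hold. The MEF2 core motif was found once among the 11 windows, in that of Casq2 at position 182, and 3.19% of all windows hold it. A match describes the letters only, and the same motif stood before a gene that fell and a gene that rose. No window was found in the table for Atp2a2 or Trdn.

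The release channel and its SR partners split in direction. Ryr2 (ENSMUSG00000021313, chr13:11553102-12106945, minus strand, GRCm38), the cardiac ryanodine receptor through which the SR releases calcium, was at 667, 663 and 636 CPM in sham, 825, 848 and 848 in ligation, and 784, 775 and 789 in the cell group. The 3 groups did not overlap: every ligation library lay above every cell library, and every cell library above every sham library. Ryr2 rose after ligation by 0.36 (log2, SE 0.0388, 1.28-fold, edgeR adjusted p = 2.56e-07) and was higher in the cell group than in sham by 0.26 (SE 0.0388, edgeR adjusted p = 2.01e-05). The difference between the cell group and ligation, -0.10 (SE 0.0386, edgeR adjusted p = 0.104), did not pass, though it did with library totals (-0.13, edgeR adjusted p = 0.0369) and with limma-voom (-0.10, adjusted p = 0.0346). Longer genes as a whole were shifted upward after ligation, with a median log2 change of 0.07 over the 4606 genes with most exon bases and -0.09 over the 4606 with fewest, and Ryr2 has 28790 bases of exon. With an offset for GC content and length, the rise of Ryr2 was 0.16 (edgeR adjusted p = 0.00191), and the difference between the cell group and sham no longer passed (0.06, edgeR adjusted p = 0.241).

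Hrc (ENSMUSG00000038239, chr7:45335290-45338974, plus strand), the histidine-rich calcium-binding protein of the SR lumen, had the deepest fall of the 10. It was at 809, 825 and 816 CPM in sham, 518, 521 and 491 in ligation, and 539, 519 and 542 in the cell group. All 6 libraries of ligated hearts lay far below the 3 sham libraries, and the ligation and cell libraries overlapped. Hrc fell after ligation by 0.68 on the log2 scale (SE 0.0415, to 0.624 of sham, edgeR adjusted p = 5.01e-11), and the difference between the cell group and ligation was 0.06 (SE 0.0415, edgeR adjusted p = 0.393). With the GC content and length offset that difference was 0.13 and passed (edgeR adjusted p = 0.0214).

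Casq2 (ENSMUSG00000027861, chr3:102086415-102146514, plus strand), the cardiac calsequestrin that buffers calcium in the store, behaved otherwise. It was at 681, 639 and 665 CPM in sham, 707, 710.2 and 679 in ligation, and 827, 829.9 and 822 in the cell group. Sham and ligation overlapped, while the 3 cell libraries stood above both. The change with ligation was 0.08 (SE 0.0404, edgeR adjusted p = 0.137). Casq2 was higher in the cell group than in ligation by 0.24 (SE 0.0402, 1.18-fold, edgeR adjusted p = 0.000333) and higher than in sham by 0.32 (SE 0.0403, edgeR adjusted p = 1.94e-06).

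Trdn (ENSMUSG00000019787, chr10:33080554-33476709, plus strand), triadin, which ties calsequestrin to the ryanodine receptor, was at 302, 258 and 302 CPM in sham, 297, 285 and 259 in ligation, and 320.3, 320.3 and 303 in the cell group. Trdn passed the test in none of the 3 comparisons (log2 change of -0.04 with ligation, difference of 0.17 between cells and ligation and of 0.13 between cells and sham, edgeR adjusted p = 0.677, 0.0985 and 0.101). Some other settings let it pass: for cells and ligation, scaling to the cardiomyocyte markers (0.19), no filter on low counts (0.17) and leaving out sham replicate 2 (0.17). For cells and sham these were library totals (0.29), the markers (0.51) and no filter (0.14). It was also among the least even genes within groups: sham replicate 2 deviated by 0.15 on the log2 scale from its group. Jph2 (ENSMUSG00000017817, chr2:163336242-163397993, minus strand), junctophilin, which holds the SR against the T-tubule membrane, was at 457, 447 and 420.2 CPM in sham, 430.2, 462 and 471 in ligation, and 506, 475 and 509.5 in the cell group. Sham and ligation overlapped, and the cell libraries were the highest 3 of the 9. Jph2 was higher in the cell group than in sham by 0.17 (SE 0.049, edgeR adjusted p = 0.00793), but neither the change with ligation (0.04, SE 0.0492, edgeR adjusted p = 0.525) nor the difference between cells and ligation (0.13, SE 0.0489, edgeR adjusted p = 0.11) passed. The Jph2 call against sham was lost without sham replicate 3 (0.14) and with cell replicate 1 alone (0.18), and with the GC content and length offset the difference between cells and ligation was 0.22 and passed (edgeR adjusted p = 0.000909).

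Cacna1c (ENSMUSG00000051331, chr6:118587240-119196418, minus strand) encodes the pore of the L-type channel that lets trigger calcium in. It was at 173, 174 and 173 CPM in sham, 189, 204 and 216 in ligation, and 175, 199 and 196 in the cell group. The sham libraries were nearly equal, the ligation libraries all higher, and the cell libraries all above sham, with 2 of the 3 inside the ligation range. Cacna1c rose after ligation by 0.23 (SE 0.0611, 1.17-fold, edgeR adjusted p = 0.00508). This call was lost without ligation replicate 3 (0.16) and with the GC content and length offset (0.04, edgeR adjusted p = 0.606). The difference between cells and ligation was -0.10 (SE 0.0604, edgeR adjusted p = 0.366), and that between cells and sham 0.13 (SE 0.061, edgeR adjusted p = 0.0896). The latter passed with library totals (0.29), scaled to the cardiomyocyte markers (0.51) and without cell replicate 1 (0.19), and turned to -0.05 with the GC content and length offset.

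Among the genes of calcium removal, the pump and its inhibitor fell with ligation and the exchanger rose. Atp2a2 (ENSMUSG00000029467, chr5:122453513-122502225, minus strand), which encodes the SERCA2 pump, was at 6739, 6556 and 6818 CPM in sham, 5349, 5159.9 and 4991 in ligation, and 5837, 5833 and 5764 in the cell group. The groups were fully apart, with the cell libraries between ligation and sham. Atp2a2 fell with ligation by 0.38 on the log2 scale (SE 0.0289, to 0.771 of sham, edgeR adjusted p = 1.67e-09). It was higher in the cell group than in ligation by 0.17 (SE 0.0288, edgeR adjusted p = 0.000419) and lower than in sham, at -0.21 (SE 0.0288, edgeR adjusted p = 7.58e-06). Set against the cardiomyocyte markers instead of all genes, the change with ligation was -0.02 (edgeR adjusted p = 0.526), although the median marker changed by -0.18, less than Atp2a2. On that scale the difference between cells and sham turned to 0.17 (edgeR adjusted p = 1.49e-05).

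Pln (ENSMUSG00000038583, chr10:53337667-53345987, plus strand), phospholamban, the inhibitor of the pump, was at 1281, 1142 and 1280.1 CPM in sham, 875, 829.7 and 729.9 in ligation, and 939, 951 and 887 in the cell group. Like its target Atp2a2, it was highest in every sham library and lowest in every ligation library. Pln fell with ligation by 0.61 on the log2 scale (SE 0.0571, to 0.657 of sham, edgeR adjusted p = 3.53e-08) and was lower in the cell group than in sham, at -0.42 (SE 0.0569, edgeR adjusted p = 5.93e-06), though not when scaled to the cardiomyocyte markers (-0.04, edgeR adjusted p = 0.562). It was higher in the cell group than in ligation by 0.19 (SE 0.057, 1.14-fold, edgeR adjusted p = 0.0375), a call that was lost under 8 of 25 other settings. Among them were leaving out ligation replicate 2 (0.21) or 3 (0.12) or cell replicate 1 (0.18) or 2 (0.17). Of its 2759 exon bases, 64.7% are shared with other genes, mostly the opposite-strand gene Gm47644, and the counting strand is not given in the sources used here. Summed with these genes, the 3 changes of Pln were -0.62, 0.19 and -0.42. That sum could move little, as Gm47644 and Cep85l averaged 50.8 and 198 reads, against 4107 to 8064 for Pln. If counting ignored strand, reads in the shared bases were assigned to several genes and are missing from the sum.

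Slc8a1 (ENSMUSG00000054640, chr17:81373105-81738377, minus strand), the sodium-calcium exchanger NCX1 that extrudes calcium, changed more than any other of the 10. It was at 32.6, 33.3 and 28.6 CPM in sham, 86.7, 81.8 and 83.9 in ligation, and 105, 116 and 108 in the cell group. The 3 groups were apart, with the cell libraries the highest. Slc8a1 rose with ligation by 1.42 (SE 0.0762, 2.67-fold, edgeR adjusted p = 7.67e-12). It was higher in the cell group than in ligation by 0.38 (SE 0.0661, 1.30-fold, edgeR adjusted p = 0.000488) and than in sham by 1.80 (SE 0.0744, 3.48-fold, edgeR adjusted p = 9.03e-14). With cell replicate 1 alone standing for the cell group, the difference from ligation was 0.32 and did not pass (edgeR adjusted p = 0.0762).

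Camk2d (ENSMUSG00000053819, chr3:126596302-126846326, plus strand), the main cardiac form of the calcium- and calmodulin-dependent kinase that phosphorylates Ryr2 and Pln proteins, was at 129, 125 and 131 CPM in sham, 144, 129 and 137 in ligation, and 158, 149 and 154 in the cell group. Sham and ligation overlapped and the cell libraries lay above both. Camk2d was higher in the cell group than in sham by 0.26 (SE 0.0578, 1.20-fold, edgeR adjusted p = 0.00108). The change with ligation, 0.09 (SE 0.0584, edgeR adjusted p = 0.266), and the difference between cells and ligation, 0.17 (SE 0.0574, edgeR adjusted p = 0.0606), did not pass. The latter passed with limma-voom, scaled to the cardiomyocyte markers and without ligation replicate 1 (0.18, 0.20 and 0.21, adjusted p = 0.0367, 0.0454 and 0.0363 by limma-voom and edgeR).

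**Figure D2:**
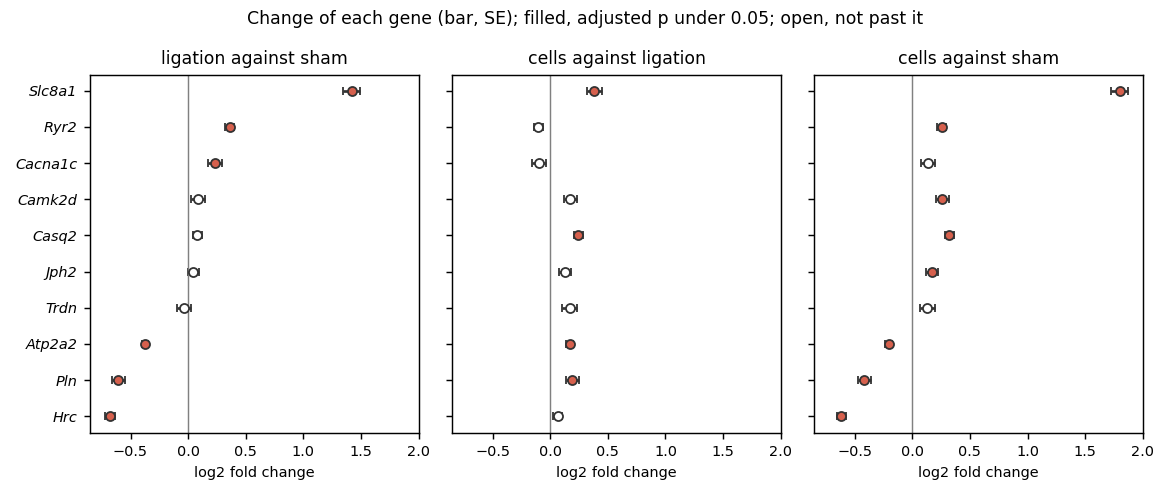
Log2 fold change (x axis) of each of the 10 genes (y axis) in the 3 comparisons; bars are SE, filled points have an edgeR adjusted p under 0.05. Slc8a1 stands apart on the right at 1.42 and 1.80 in the comparisons with sham, Hrc, Pln and Atp2a2 on the left, and in cells against ligation the 4 filled points are all above 0.

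Between ligation with cells and ligation alone, 4 of the 10 genes were higher (Slc8a1, Casq2, Pln and Atp2a2), 6 did not pass and none was lower. Over all tested genes, 4.19% were higher and 5.69% lower, 9.87% in all. The libraries of the 2 groups did not overlap for 8 of the 10 genes, 7 higher and 1 (Ryr2) lower, while 27.2% of all tested genes did not overlap. The median log2 difference was 0.17 for the 10 genes and 0.00 for all tested genes. Scaled by library totals alone, where 9.86% of all tested genes passed, 3 were higher and 1 (Ryr2, -0.13, edgeR adjusted p = 0.0369) lower. With cell replicate 1 alone, where 3.32% of all tested genes passed, 2 of the 10 did, Casq2 (0.25, edgeR adjusted p = 0.0295) and Atp2a2 (0.18, edgeR adjusted p = 0.0171). This comparison shares the ligation libraries with that of ligation and sham, so the values of a gene in both are not independent. Beside these differences, markers of atrial heart muscle (Myl7, Myl4, Sln, Nppa, Dkk3 and Bmp10) summed to 519.1 to 607 CPM in sham, 932 to 1698 in ligation and 1714 to 2303 in the cell group. After ligation Nppa, Dkk3 and Bmp10 rose, Nppa from a mean of 106.8 to 894.9 CPM, while Myl7 (-0.68), Myl4 (-0.46) and Sln (-0.25) fell. Of the 6, 4 were higher in the cell group than in ligation (Myl7, Myl4, Sln and Dkk3), while Bmp10 was lower and Nppa did not pass. Their part in the differences of the 10 genes was not tested.

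Between ligation with cells and sham, 8 of the 10 genes passed, 5 higher (Slc8a1, Casq2, Ryr2, Camk2d and Jph2) and 3 lower (Hrc, Pln and Atp2a2). Over all tested genes, 21.0% were higher and 20.0% lower, 40.9% in all. The libraries of the 2 groups did not overlap for any of the 10 genes, against 49.8% of all tested genes. Scaled by library totals alone, where 45.6% of all tested genes passed, 4612 of them higher, 7 of the 10 were higher and 2 lower, Atp2a2 then missing the threshold at -0.05 (edgeR adjusted p = 0.129).

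The 10 genes were also scaled to the 12 cardiomyocyte markers, of which 8 were lower after ligation, 1 (Mybpc3, 0.11) was higher and 3 (Actn2, Tnnt2 and Ckm) did not pass. The markers were not even: Tnni3, Myl2, Myl3 and Tnnc1 lay at -0.95 to -0.59 on the log2 scale and the median marker at -0.18. On that scale, where 58.1% of all tested genes passed, 7 of the 10 were higher in ligation than in sham (Slc8a1 1.77, Ryr2 0.71, Cacna1c 0.59, Camk2d 0.44, Casq2 0.43, Jph2 0.40 and Trdn 0.32), 2 were lower (Hrc -0.32 and Pln -0.25), and Atp2a2 did not pass. The median of all genes shifts by 0.36 on this scale, so the values are relative to the markers and not to the tissue. Hrc and Pln were lower and Slc8a1, Ryr2 and Cacna1c higher after ligation under all 3 scalings (TMM factors, library totals and markers). For cells against ligation the median gene shifted by 0.02 and 6 of the 10 were higher, where 701 of the 13825 tested genes were: Slc8a1 0.40, Casq2 0.27, Pln 0.22, Camk2d 0.20, Atp2a2 0.19 and Trdn 0.19.

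**Figure D3:**
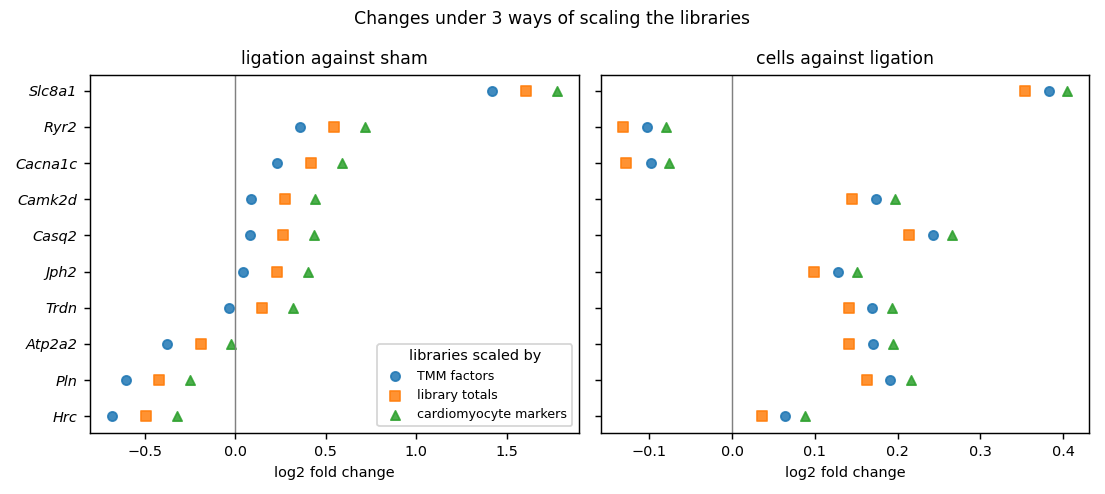
Log2 fold change (x axis, a different range in each panel) of the 10 genes (y axis) with libraries scaled by TMM factors, by library totals or by the cardiomyocyte markers. In ligation against sham the markers' scale lies to the right, taking Atp2a2 from -0.38 to -0.02, while Slc8a1 stays on the right of 0 and Hrc and Pln on the left in all 3.

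Ratios between 2 genes within a library do not depend on how libraries are scaled, though they do depend on offsets for GC content and length. The Pln to Atp2a2 ratio of counts, inhibitor to pump, was 0.190, 0.174 and 0.188 in sham, 0.164, 0.161 and 0.146 in ligation, and 0.161, 0.163 and 0.154 in the cell group. Every sham library lay above all others, and ligation and cells overlapped. The log2 difference was -0.23 for ligation against sham (exact permutation test, two-sided, p = 0.1, the lowest value possible with groups of 3) and 0.02 for the cell group against ligation (exact permutation p = 0.8).

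The Slc8a1 to Atp2a2 ratio, exchanger to pump, was 0.00483, 0.00508 and 0.00419 in sham, 0.0162, 0.0158 and 0.0168 in ligation, and 0.0180, 0.0199 and 0.0187 in the cell group. The groups did not overlap. The ratio was 3.48-fold higher in ligation than in sham, 1.16-fold higher in the cell group than in ligation and 4.02-fold higher in the cell group than in sham (exact permutation p = 0.1 for each). The Casq2 to Ryr2 ratio, store buffer to release channel, was 1.02, 0.963 and 1.05 in sham, 0.857, 0.838 and 0.801 in ligation, and 1.06, 1.07 and 1.04 in the cell group. Every ligation library lay below both other groups: the log2 difference was -0.28 for ligation against sham and 0.34 for the cell group against ligation (exact permutation p = 0.1 for each), and the cell group and sham overlapped (0.06, exact permutation p = 0.2). With the GC content and length offset, the changes with ligation behind this ratio were 0.16 for Ryr2 and 0.04 for Casq2, closer together than the 0.36 and 0.08 without it. The Trdn to Casq2 ratio averaged 0.434 ± 0.0267 in sham, 0.401 ± 0.0195 after ligation and 0.381 ± 0.0102 in the cell group (SD, n = 3). Only cells against sham had no overlap (-0.19, exact permutation p = 0.1). The exact permutation tests numbered 12, and none can pass an adjustment at this size.

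**Figure D4:**
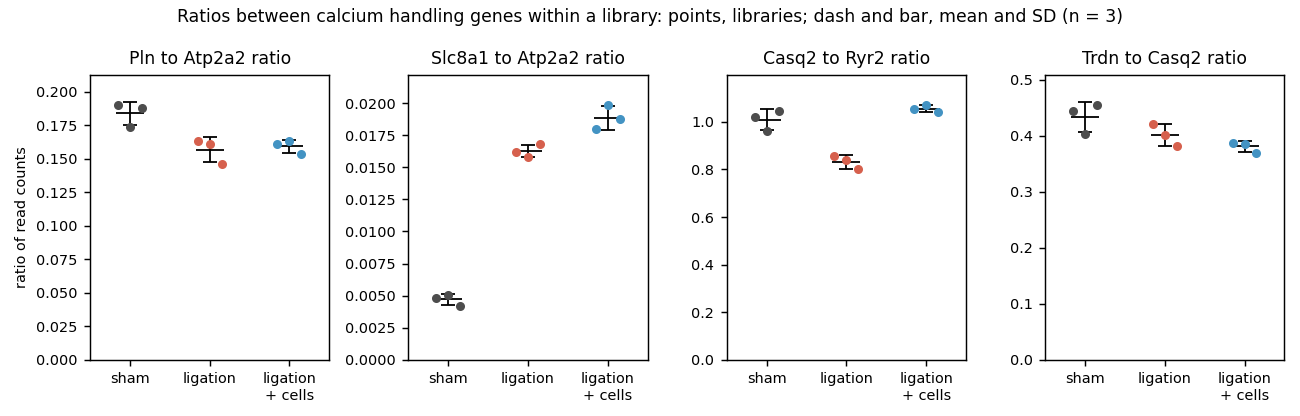
Ratio of read counts between 2 genes in the same library (y axis, from 0) by group (x axis); points are libraries, dash and bar the mean and SD of 3. The Slc8a1 to Atp2a2 ratio rises from about 0.0047 in sham to 0.0163 in ligation and 0.0188 in the cell group, and the Casq2 to Ryr2 ratio is lowest in the ligation libraries.

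Per kilobase of exon not shared with another gene, the 10 levels covered a wide range within sham hearts. The highest were Pln at 1267 ± 82.6 and Atp2a2 at 1118 ± 22.4 CPM per kb (SD, n = 3), followed by Hrc at 318 and Casq2 at 242. Jph2 stood at 104 CPM per kb, Trdn at 30.7, Ryr2 at 22.8, Cacna1c at 8.18, Camk2d at 5.71 and Slc8a1 at 1.67. No 2 neighbours in that order overlapped between the sham libraries. After ligation Pln (833 ± 76.3) and Atp2a2 (861 ± 29.9, SD, n = 3) overlapped, as did Trdn (30.0) and Ryr2 (29.2), and Casq2 (255) stood above Hrc (199). In the cell group Pln (950.4) and Atp2a2 (969) again overlapped, Casq2 was at 302 and Hrc at 208, and Slc8a1 was still the lowest at 5.83 CPM per kb. The place of Pln rests on dividing by its 974 unshared bases, which holds only if reads were counted without strand; over all its 2759 exon bases it stood at 447 CPM per kb in sham, below Atp2a2 at 1103. These lengths merge all annotated exons, so genes with many alternative exons or long untranslated parts, such as Slc8a1 and Camk2d, can come out lower than their main transcript alone would.

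As a description over the 9 libraries, which share the group differences, the log2 levels of Atp2a2 and Pln moved together (Pearson r = 0.978), as did Casq2 and Camk2d (r = 0.906), and Ryr2 ran opposite to Atp2a2 (r = -0.974). Among 9413 genes with a mean of at least 10 CPM, those most like Ryr2 were Spp1 (osteopontin, r = 0.997), Krt19 (a keratin, r = 0.994) and Tmem119 (r = 0.993). Spp1 had mean levels of 2.40 CPM in sham, 29.0 after ligation and 14.3 in the cell group. Those most like Atp2a2 were Cd36, the fatty acid transporter (r = 0.994), Slc25a20, the mitochondrial carnitine carrier (r = 0.994), and Hspd1, a mitochondrial chaperone (r = 0.990). Cd36 had mean levels of 1962 CPM in sham, 1300 after ligation and 1594 in the cell group. Those most like Pln were Atp5f1 and mt-Nd2, subunits of mitochondrial ATP synthase and of complex I, and Lpl, lipoprotein lipase (r = 0.992, 0.989 and 0.989).

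A wider set of calcium genes was taken from 9 lists of 108 symbols that hold none of the 10. Of these 107 matched a gene ID, all but Strit1, and 98 had enough reads to be tested. After ligation 20 rose and 26 fell, 46 of 98 against 38.2% of all tested genes, with a median of 0.01. Scaled by library totals alone, 43 rose and 14 fell, where 4966 of the 6312 genes that passed among all 13825 rose. In cells against ligation 10 were higher and 6 lower, 16 of 98 against 9.87%, and in cells against sham 26 were higher and 24 lower, 50 of 98 against 40.9%. Without cell replicate 1, only 8 genes of the lists passed in cells against ligation, where 7.37% of all tested genes did. By library totals, 7 were higher and 8 lower in cells against ligation, where 436 of the 1363 genes that passed were higher. In cells against sham 46 were then higher and 15 lower, where 4612 of the 6310 genes that passed were higher.

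Among SR release and lumen genes (14 tested), 3 rose and 2 fell after ligation, near the 38.2% of all tested genes, and 3 were higher and 1 lower in cells against ligation, where 9.87% of all passed. Ryr3, a second ryanodine receptor, rose by 1.36 (edgeR adjusted p = 0.0152) at 0.329 to 2.31 CPM in sham, near the level of single reads. Markers of fast skeletal muscle, 9 genes with Casq1 among them, summed to 13.18 to 17.96 CPM in sham, 15.19 to 18.5 in ligation and 10.78 to 15.85 in the cell group, with Myh2 and Myh4 at 0 in sham. Casq1 held most of that sum in sham and the cell group (means of 9.25 and 9.22 CPM, and 5.36 in ligation), and other markers ran opposite to it: Tnnt3 was higher after ligation (1.80, edgeR adjusted p = 0.00714) and lower in cells than in ligation (-2.12, edgeR adjusted p = 0.00852), as was Tnni2 in the latter (-2.58, edgeR adjusted p = 0.00182). Casq1, the skeletal calsequestrin, fell by 0.76 on the log2 scale (edgeR adjusted p = 0.00972) and was higher in cells than in ligation by 0.75 (edgeR adjusted p = 0.0298). Asph, whose products include junctin, a partner of triadin, did not pass after ligation (0.09, edgeR adjusted p = 0.223) and was higher in cells than in ligation by 0.26 (edgeR adjusted p = 0.00294). Calr, the calcium-binding chaperone of the endoplasmic reticulum, was lower there, at -0.22 (edgeR adjusted p = 0.00171). Fkbp1b, a stabilizer of the ryanodine receptor, had 6 to 18 reads per library, at mean levels of 1.31 to 2.02 CPM. It passed in neither, and a test at so few reads is weak. Fkbp1a of the same list, at means of 296 CPM in sham and 330 in ligation, rose by 0.16 after ligation (edgeR adjusted p = 0.0188). It did not pass in cells against ligation (-0.07, edgeR adjusted p = 0.437).

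Among SR uptake genes (10 tested), 1 rose and 1 fell after ligation, a smaller share than the 38.2% of all tested genes, and 3 were higher in cells against ligation, where 9.87% of all passed. Sln, sarcolipin, a second inhibitor of SERCA that is known mainly from atrial muscle, was at 61.2, 66.6 and 70.6 CPM in sham, 54.1, 55.7 and 56.4 in ligation, and 195, 171 and 212 in the cell group. The cell libraries stood far above the rest. Sln fell by 0.25 on the log2 scale after ligation (edgeR adjusted p = 0.0186) and was higher in cells than in ligation by 1.80 (edgeR adjusted p = 1.13e-12). Of the other atrial markers, Myl7 (1.60), Myl4 (1.79) and Dkk3 (0.62) were higher there too, Bmp10 was lower (-2.39) and Nppa did not pass. Prkacb, a catalytic subunit of protein kinase A, rose by 0.24 after ligation (edgeR adjusted p = 0.0141). Ppp1r1a, a phosphatase inhibitor, did not pass (-0.38, edgeR adjusted p = 0.49), and Atp2a1, the skeletal SR pump, was too low to be tested, at mean levels of 0.330 to 1.14 CPM.

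Among genes of calcium entry (13 tested), 3 rose and 3 fell after ligation, and 1 was higher in cells against ligation, both near the shares of all tested genes (38.2% and 9.87%). The L-type channel subunit genes Cacnb3 and Cacna2d1 rose by 0.86 (edgeR adjusted p = 0.000236) and 0.34 (edgeR adjusted p = 0.000196), while Cacnb2, another such subunit gene, did not pass (0.18, edgeR adjusted p = 0.128). Cacna1h, a T-type channel, fell by 1.41 on the log2 scale (edgeR adjusted p = 0.000141). Cacna2d2 was higher in cells than in ligation by 1.35 (edgeR adjusted p = 2.58e-05), with means of 5.97 ± 0.637, 7.25 ± 1.86 and 18.2 ± 1.91 CPM in the sham, ligation and cell libraries (SD, n = 3).

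Among genes of extrusion and the sodium gradient (9 tested), 4 rose and 2 fell after ligation (38.2% of all tested genes passed), and only Slc8b1, the mitochondrial sodium-calcium exchanger, passed in cells against ligation (-0.46, edgeR adjusted p = 0.0328). Atp2b2, a plasma membrane calcium pump, rose by 1.23 (edgeR adjusted p = 0.00575) but had only 7 to 12 reads in each sham library. Of the more abundant pumps of this kind, Atp2b1 rose by 0.40 (edgeR adjusted p = 7.92e-05) and Atp2b4 did not pass (-0.13, edgeR adjusted p = 0.216).

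Among the kinase and calcineurin genes (15 tested), 3 rose and 2 fell after ligation, under the 38.2% of all tested genes, and 2 were higher and 1 lower in cells against ligation, where 9.87% of all passed. Rcan1, a calcineurin regulator that is itself induced by calcineurin signalling, was at 105, 101 and 99.1 CPM in sham, 228, 231 and 229 in ligation, and 284, 275 and 294 in the cell group, 3 separate levels. It rose by 1.17 with ligation (edgeR adjusted p = 4.3e-13) and was higher in cells than in ligation by 0.31 (edgeR adjusted p = 0.000254), the same order of groups as Slc8a1. Camk2a, another kinase subunit gene, fell by 0.84 on the log2 scale after ligation (edgeR adjusted p = 3.56e-05) and was higher in cells than in ligation by 0.46 (edgeR adjusted p = 0.0358). Camk2g did not pass after ligation (0.18, edgeR adjusted p = 0.0599), and Nfatc2 was lower in cells than in ligation, at -0.49 (edgeR adjusted p = 0.0445).

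The remaining lists are small, and their counts after ligation stand on the TMM scale, where 20.1% of all tested genes rose and 18.0% fell (38.2% in all, and 9.87% passed in cells against ligation); the direction of the wider lists as a whole turned with library totals, as given above. Of 11 genes of IP3 receptors and store-operated entry, 1 rose (Orai2, 1.45, edgeR adjusted p = 0.000218) and 4 fell, and none passed in cells against ligation. Of 10 mitochondrial calcium genes, 1 rose (Micu2, 0.50, edgeR adjusted p = 7.04e-06) and 4 fell, Vdac2 most (-0.38, edgeR adjusted p = 4.39e-07), while Mcu, the uniporter pore, did not pass (0.09, edgeR adjusted p = 0.602) and none passed in cells against ligation. Of 9 dyad and T-tubule genes, 2 rose and 4 fell, with Ehd4 at 0.82 (edgeR adjusted p = 1.49e-12) and Cav3, the muscle caveolin, at -0.44 (edgeR adjusted p = 3.99e-05). In cells against ligation Srl, an SR protein, was higher (0.24, edgeR adjusted p = 0.000612), Bin1, which shapes T-tubules, was lower (-0.44, edgeR adjusted p = 0.0112), and Tcap was lower too. Of 7 myofilament genes, which overlap the cardiomyocyte markers, 2 rose, with Mylk3 at 0.55 (edgeR adjusted p = 2.15e-09), and 4 fell, with Tnni3 at -0.95 (edgeR adjusted p = 1.69e-12) and Tnnc1, the calcium sensor, at -0.59 (edgeR adjusted p = 9.59e-10). Of these, Tnnt2 alone passed in cells against ligation (-0.11, edgeR adjusted p = 0.0468).

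**Figure D5:**
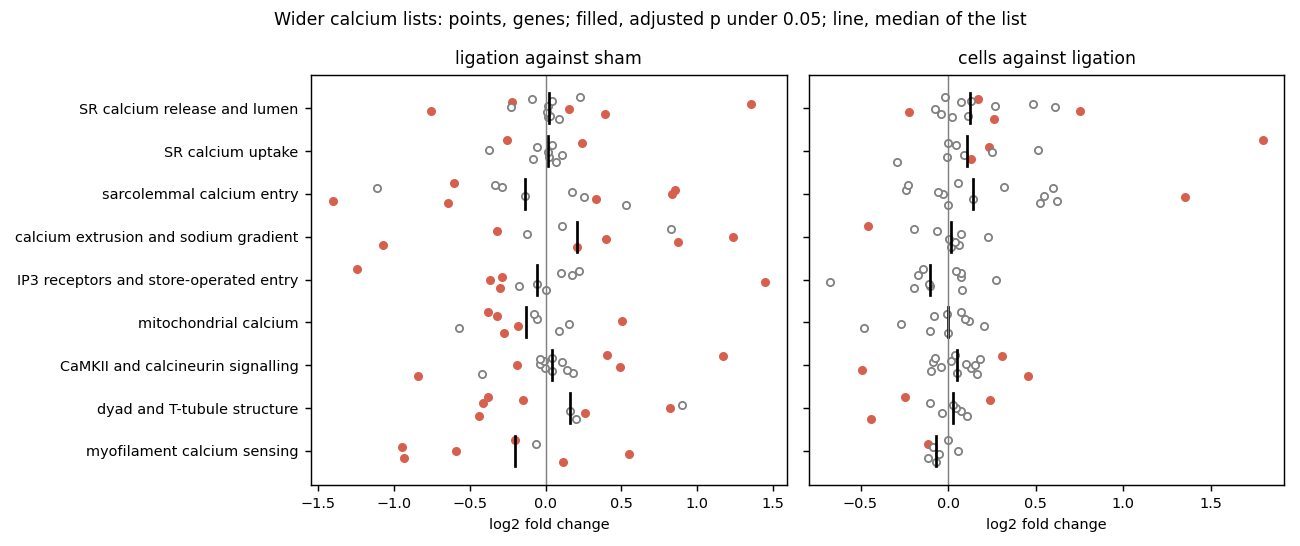
Log2 fold change (x axis) of the 98 tested genes of the 9 wider calcium lists (y axis; vertical scatter within a list only separates points); filled points have an edgeR adjusted p under 0.05 and the line is the list's median. Filled points lie on both sides of 0 in every list for ligation against sham, and Sln (1.80) and Cacna2d2 (1.35) are the farthest to the right in cells against ligation.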

How the data were processed

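Each of the 9 deposited files holds 1 library's whole-number counts for every gene, not normalized, as the values and file headers show. Per the labels' protocols, TRIzol served for extraction and a NEBNext Ultra RNA kit for library construction. The submitters' processing notes name mm10, the build of all coordinates here (GENCODE annotation of GRCm38, which gave symbols for 53274 of 53465 IDs). Aligner, counter, strand setting and annotation release are not given in the sources used here. Reads assigned to no gene (4.14 to 4.91% per library) or to several were left out of library sizes.

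Counts were fitted in R 4.3.3 with edgeR 4.0.16 (filterByExpr, TMM, estimateDisp, glmQLFit, glmQLFTest) in 1 model over all 9 libraries with 6 residual degrees of freedom. P-values are two-sided and adjusted with the Benjamini-Hochberg method over 13825 genes. An SE is the log2 change divided by the square root of its F statistic. CPM carry no added count. Ratios were tested by exact permutation. Scripts were tested on simulated data. Groups came from the titles. The 10 genes, the lists, the markers and the rule for the named genes were chosen with earlier results of these data known. That rule took all 10 genes, 12 fixed genes, and from each list the largest passing change in each direction, at a mean of at least 1 CPM and without overlap, for ligation and for cells against ligation. Tcap, Fkbp1a, Atp2b1, Atp2b4 and the cell type markers named beside the results fall outside it. Some genes that the rule takes are not reported here. Other scalings, filters, tools (DESeq2 1.42.0, limma 3.58.1), left-out libraries, a replicate block and GC content with length offsets were tried.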

Additional observations from a re-analysis of the deposited data

Results flagged for a closer look

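Reads that fell outside annotated genes, which no comparison above uses, took a mean of 4.75% of reads in the ligation libraries, above the 4.21% in sham and 4.22% in the cell group.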

How the results depend on the processing

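With libraries scaled by totals alone, 10 of the 10 genes passed after ligation (45.7% of all tested genes did), and Trdn turned to 0.149. Scaled to the cardiomyocyte markers, 73 genes of the wider lists passed after ligation, 65 higher and 8 lower (58.1% of all tested genes passed, 7258 of 8028 higher), Trdn turned to 0.316 there and Atp2a2 to 0.172 in cells against sham. With cell replicate 1 alone, 2 of the 10 genes and 7 of the wider lists passed in cells against ligation (3.32% of all tested genes did), and Cacna1c turned to -0.0016 against sham. Leaving out 1 library at a time gave 8 (without cell replicate 1, where 7.37% of all tested genes passed) to 16 genes of the wider lists in cells against ligation, Trdn between -0.1117 and 7e-04 and Jph2 between -7e-04 and 0.0809 after ligation, and the Pln to Atp2a2 ratio between -0.0265 (without ligation replicate 3) and 0.0543 in cells against ligation. With GC content and length offsets, an alternative chosen after seeing the data, Jph2 (-0.0668) and Camk2d (-0.0122) turned after ligation and Cacna1c (-0.048) in cells against sham. The same offsets let Jph2 and Hrc pass in cells against ligation. The cause was not tested.

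Same-numbered libraries did not pair: over 9 pairs their deviations correlated between -0.1213 and 0.133, with 1 pair over 0.1. With replicate number as a block, 6, 4 and 8 of the 10 genes passed, as without it, and with the block and the offsets together Jph2 (-0.066), Camk2d (-0.0121) and Cacna1c (-0.0492) turned likewise. The lowest count of the 10 genes in any library was 180 reads (Slc8a1, sham replicate 3).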
